A study of Mus musculus with 6 samples.

Results

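The 10 genes described here, *Kit*, *Flt3*, *Cd34*, *Ly6a*, *Hoxa9*, *Hoxa10*, *Meis1*, *Myb*, *Erg* and *Mecom*, are commonly used to describe hematopoietic stem cells and leukemia-initiating cells. They were taken by name from a count table of 54838 mouse genes, and all 10 were found there. Expression was measured by 3′ end RNA sequencing in leukemic cells from 6 mice, of which 3 received vehicle and 3 received AG636, an inhibitor of DHODH and hence of *de novo* pyrimidine synthesis, by oral gavage at 100 mg/kg with 2 doses a day. The leukemia, called I1DN, is on a C57BL/6 background and carries IDH1R132H, DNMT3AR882H and NrasG12D in both groups, so that no sample lacks any of the 3 alleles. All mice were sublethally irradiated congenic recipients (Ptprca) that had been transplanted with the leukemia. It was first made by transducing fetal liver stem and progenitor cells, and its cells had been banked from a moribund animal, so the mice replicate treatment of 1 established tumor. The age of the animals is not given in the sources used here. Cells were sorted from bone marrow and spleen as cKit-positive, CD11b-negative or CD11b-low cells. The length of treatment is given as 1 day in one place and 4 days in another, and the labels do not settle which applies.

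In normal blood formation, cytokine receptors such as KIT and FLT3 pass survival and growth signals into immature cells, and transcription factors keep those cells from maturing. HOXA9 and HOXA10 bind DNA together with MEIS1 and PBX proteins, and high HOXA and MEIS1 expression is a classical feature of leukemias with MLL fusions and of many with mutated NPM1. MYB, ERG and the *Mecom* product EVI1 are further regulators of stem cell identity, while CD34 and SCA-1, the product of *Ly6a*, are surface proteins used to sort immature cells.

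Among the 6 genes with enough counts to be tested, *Meis1* rose with AG636, to 2.02 times its vehicle level, and the other 5 did not pass. *Flt3*, too low for the test, had more counts in every AG636 mouse than in any vehicle mouse, and was called by DESeq2 and by edgeR without a filter. *Erg* was also higher in each AG636-treated mouse than in any vehicle mouse, but did not pass the threshold. Of all genes tested, 20.4% had AG636 levels wholly above the vehicle levels, so such a separation is common here. *Kit*, *Cd34* and *Myb* were readily detected in both groups and did not pass the threshold. *Hoxa9*, *Hoxa10* and *Mecom* were at or below the detection limit in both groups. Of the 6 tested genes, 1 was called higher and 0 lower by the quasi-likelihood test of edgeR, its p-values adjusted after Benjamini and Hochberg over 11092 genes. The background was 10.3% of all tested genes called higher and 11.0% called lower, so a single call among 6 genes does not set this group apart. At an unadjusted p under 0.05, 3 of the 6 were higher (*Meis1*, *Erg* and *Ly6a*) and 0 lower, beside 18.7% of all tested genes higher and 18.4% lower. DESeq2 called 3 of the 10 genes higher and 0 lower, beside 9.09% higher and 11.5% lower of all genes it gave an adjusted p. Limma-voom called 2 higher and 0 lower, beside 10.3% and 11.1% of all genes tested. In bulk RNA, fewer cells of a type and less RNA per cell cannot be told apart, and this applies to every level that follows.

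**Figure D1:**
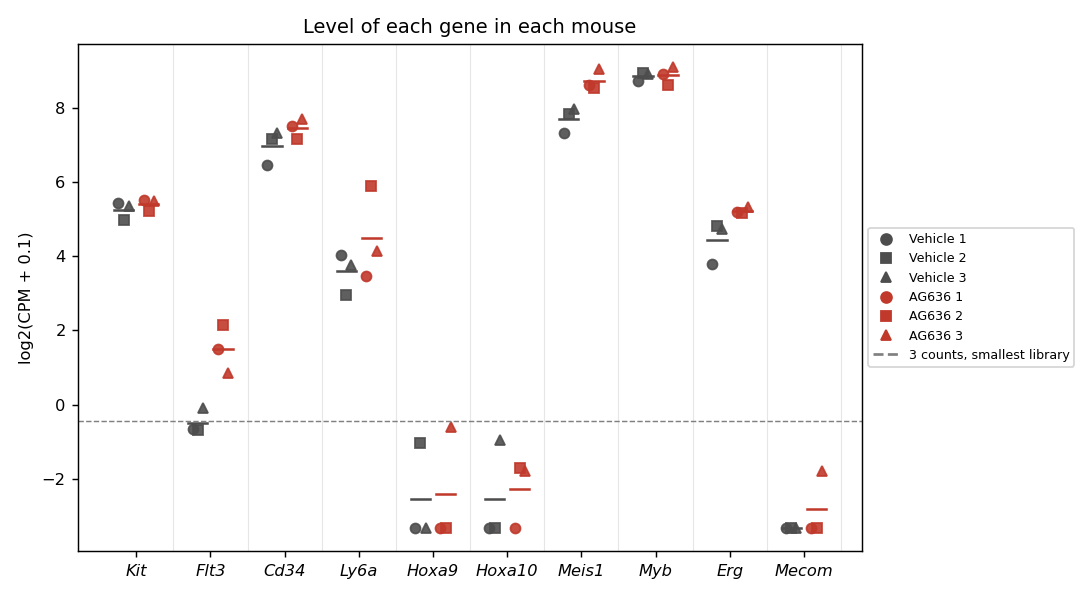
Level of each gene in each mouse as log2(CPM + 0.1), CPM being counts scaled to 1000000 per library. Grey symbols are vehicle and red symbols AG636, each symbol is 1 mouse, short lines are group means of the plotted values, and the dashed line marks 3 counts in the smallest library. All 3 AG636 points lie above all 3 vehicle points for *Meis1*, *Erg* and *Flt3*, a separation found in 20.4% of all genes tested. *Hoxa9*, *Hoxa10* and *Mecom* stay at or under the dashed line.

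Libraries held between 4634963 and 7906589 counts, so 3 counts corresponded to 0.391 to 0.635 CPM in a single library. The first vehicle library stood apart: it had the lowest *Meis1*, *Cd34* and *Erg* levels of all 6, the lowest summed maturing granulocyte markers and the highest summed erythroid markers. *Meis1*, *Cd34*, *Erg* and *Myb* are given with and without it, as are the counts of calls in the related lists. The pan-leukocyte gene *Ptprc* was present in every library at 98.1 to 196 CPM, with higher values in AG636 (log2 fold change 0.65 ± 0.15 SE, edgeR adjusted p = 0.0142).

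*Kit* encodes the stem cell factor receptor, and its protein was one of the antigens used for the sort, so its level is not independent of how the cells were chosen. *Kit* (ENSMUSG00000005672, mm10 chromosome 5, 75574916 to 75656722) was at 43.0, 31.7 and 40.8 CPM in the vehicle mice and at 46.1, 37.2 and 44.6 CPM in the AG636 mice. The groups overlapped, and in both the second mouse was lowest. The group means were 38.5 ± 6.01 and 42.6 ± 4.79 CPM (SD, n = 3 each), and the log2 fold change was 0.15 ± 0.17 SE (edgeR adjusted p = 0.550). An exact two-sided permutation test gave p = 0.5, where 0.1 is the smallest value that 3 against 3 mice allow.

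*Flt3* encodes the receptor for FLT3 ligand, which in the mouse is found on multipotent and lymphoid-primed progenitors more than on long-term stem cells. It was barely detected, with 3, 4 and 4 counts in the vehicle mice and 13, 21 and 9 counts in the AG636 mice. Every AG636 library therefore held more *Flt3* counts than any vehicle library, although the vehicle values sat close to the 3-count limit. As levels these counts were 0.533, 0.522 and 0.833 CPM against 2.75, 4.31 and 1.69 CPM. Among the genes tested, 20.4% had AG636 levels wholly above the vehicle levels. *Flt3* (ENSMUSG00000042817, chromosome 5, 147330741 to 147400489) did not pass the filter on low counts and so had no test in the fit reported here. The pooled counts, 11 against 43, gave a ratio of 4.74 after scaling, with an exact 95% interval of 2.41 to 10.2 that covers counting error only. When the filter was left out, edgeR gave *Flt3* a log2 fold change of 2.17 ± 0.61 SE with an adjusted p of 0.00482, and 7.19% of all genes were then called higher and 7.58% lower. In that fit the SE of *Ly6a*, high in a single mouse as described below, was 0.23 against 0.54 with the filter. The adjusted p-values of the fit without a filter are therefore read with caution. DESeq2 gave 2.21 with an adjusted p of 0.0298. Leaving out any 1 vehicle mouse or the third AG636 mouse let *Flt3* pass the filter, with edgeR adjusted p between 0.031 and 0.0745. It did not pass without the first or the second AG636 mouse, which held its highest counts. Entry to these fits thus depended on the high AG636 values, and they are not independent support.

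The wider receptor pathway was read from a list of 22 ligands, adaptors and signaling proteins, of which 21 were tested. Of these, 6 rose and 1 fell, beside 10.3% and 11.0% of all genes tested. Their median log2 fold change was 0.30, beside 0.03 over all genes tested. *Sla*, an adaptor that promotes receptor turnover, was at 35.6, 45.8 and 52.9 CPM with vehicle and at 89.5, 117 and 89.9 CPM with AG636. The groups did not overlap, and the log2 fold change was 1.15 ± 0.18 SE (edgeR adjusted p = 0.00430). *Stat3*, a transcription factor activated by cytokine receptors, rose by 0.73 ± 0.16 SE on the log2 scale (edgeR adjusted p = 0.0135). The adaptors *Sla2* (0.96), *Cblb* (0.73) and *Sh2b3* (0.53) and the kinase *Lyn* (0.65) were the others that rose, with log2 fold changes in parentheses. *Shc1*, which couples receptors to RAS, fell by 0.39 on the log2 scale (edgeR adjusted p = 0.0477). It was called in 0 of 6 fits that left out 1 mouse and in 3 of 7 other settings. The stem cell factor gene *Kitl* had 2 counts in all 6 libraries together, and *Flt3l*, the FLT3 ligand gene, had a log2 fold change of 0.43 (edgeR adjusted p = 0.141).

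*Cd34* encodes a sialomucin of immature blood cells and vessel endothelium. *Cd34* (ENSMUSG00000016494, chromosome 1, 194938819 to 194961279) was at 88.0, 143 and 161 CPM with vehicle and at 183, 143 and 207 CPM with AG636. The second AG636 mouse lay within the vehicle range and the first vehicle mouse lay well below all others. The means were 130.5 ± 37.9 and 178 ± 32.3 CPM (SD, n = 3 each), with a log2 fold change of 0.45 ± 0.22 SE (edgeR adjusted p = 0.161) and an exact two-sided permutation p of 0.2. Without the first vehicle mouse the log2 fold change was 0.22 (edgeR adjusted p = 0.444). *Cd34* passed the threshold in 1 of 14 settings, the fit without a filter, and its adjusted p ranged from 0.0333 to 0.444.

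*Ly6a* encodes SCA-1, a GPI-anchored surface protein that marks mouse stem cells and is inducible by interferons. *Ly6a* (ENSMUSG00000075602, chromosome 15, 74994877 to 74998031) was at 16.4, 7.69 and 13.5 CPM with vehicle and at 11.0, 59.1 and 17.7 CPM with AG636. A single mouse, the second of the AG636 group, was far above the other 5, whose values overlapped. The log2 fold change was 1.24 ± 0.54 SE (edgeR adjusted p = 0.125) and the exact two-sided permutation p was 0.4. Without that mouse the log2 fold change was 0.21 (edgeR adjusted p = 0.687). Of the 14 settings, only the fit without a filter called *Ly6a* higher (edgeR adjusted p = 8.31e-06), within a range that reached 0.687.

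Relatives of *Ly6a* and interferon-stimulated genes were examined beside it. Of 15 other LY6 family genes, 3 were tested. The granulocyte antigen gene *Ly6g* (log2 fold change 1.60, edgeR adjusted p = 0.0169) and the monocyte antigen gene *Ly6c2* (1.13, edgeR adjusted p = 0.0408) rose. *Ly6g* dropped out where 10 counts were required in every sample, and was called in 3 of 6 fits that left out 1 mouse. Without the first AG636 mouse *Ly6c2* had a log2 fold change of 0.68 (edgeR adjusted p = 0.151), and it was called in 1 of 6 fits that left out 1 mouse. *Ly6e*, which is broadly expressed in blood cells, was at 840.2, 1064 and 884 CPM with vehicle and at 1186, 1165 and 1175 CPM with AG636, and its log2 fold change was 0.34 ± 0.11 SE (edgeR adjusted p = 0.0560). Among 20 type I interferon-stimulated genes, 19 were tested, of which 2 rose and 1 fell around a median log2 fold change of -0.03. Of all genes tested, 10.3% rose and 11.0% fell. *Ifit3*, which encodes an antiviral RNA-binding protein, was at 1.42, 0.782 and 1.25 CPM with vehicle and at 2.96, 5.95 and 2.82 CPM with AG636. Its highest value was in the mouse with the highest *Ly6a*. *Ifit3* rose by 1.78 ± 0.47 SE on the log2 scale (edgeR adjusted p = 0.0253), *Ifit2* by 1.06 (edgeR adjusted p = 0.0476), and *Bst2*, encoding tetherin, fell by 0.66 (edgeR adjusted p = 0.0484). The vehicle levels of *Ifit3* were low, so its entry to the test depended on the AG636 values. *Ifit3* dropped out where 10 counts were required in every sample. With 1 mouse left out, *Ifit3* was called in 3 of 6 fits, *Ifit2* in 0 and *Bst2* in 2. Whether interferon had a part in the *Ly6a* value was not tested.

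Other surface markers of stem and progenitor cells were read from a list of 16 genes, of which 13 were tested, 6 rose and 0 fell. Over all genes tested, 10.3% rose and 11.0% fell. All 13 estimates were above 0, as were 52.3% of all genes tested. Their median log2 fold change was 0.80, beside 0.03 over all genes tested. By DESeq2 7 rose and 0 fell, beside 9.09% and 11.5% of all genes it gave an adjusted p. By limma-voom 6 rose and 0 fell, beside 10.3% and 11.1%. At an unadjusted p under 0.05 by edgeR 0 were lower, beside 18.4% of all genes tested. *Cd9*, a tetraspanin of stem cells and megakaryocytes, was at 55.3, 67.8 and 69.8 CPM with vehicle and at 101, 116 and 121 CPM with AG636. The groups did not overlap, and the log2 fold change was 0.81 ± 0.14 SE (edgeR adjusted p = 0.00588). *Clec12a*, a myeloid lectin found on leukemic stem cells, was at 31.5, 52.6 and 61.0 CPM with vehicle and at 199, 68.6 and 140.3 CPM with AG636, a log2 fold change of 1.49 ± 0.35 SE (edgeR adjusted p = 0.0168). The stem cell marker *Slamf1* (log2 fold change 0.80), the angiopoietin receptor gene *Tek* (1.33), the C1q receptor family gene *Cd93* (0.78) and the integrin gene *Itga2b* (0.73) also rose. Leaving out 1 mouse at a time, *Cd9* was called in 6 of 6 fits and *Clec12a* in 3 of 6.

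*Hoxa9* and *Hoxa10* encode homeodomain proteins that act with MEIS1. *Hoxa9* (ENSMUSG00000038227, chromosome 6, 52223100 to 52231089) had 0, 3 and 0 counts with vehicle and 0, 0 and 3 counts with AG636. *Hoxa10* (ENSMUSG00000000938, chromosome 6, 52231197 to 52240854) had 0, 0 and 2 counts with vehicle and 0, 1 and 1 counts with AG636. No library held more than 3 counts of either gene, so no fold change is given, and a difference was not detectable at this depth. Over the 3 libraries of a group together, 3 counts corresponded to 0.166 CPM with vehicle and 0.201 CPM with AG636.

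The same held for the rest of the *Hox* genes, a tally made after the values of *Hoxa9* and *Hoxa10* had been seen. The table lists 39 *Hox* genes, of which 27 had 0 counts in all 6 libraries and 12 had at least 1. The highest total over the 6 libraries was 12 counts, for *Hoxb1*, and none of the 39 was tested. Within the HOXA cluster, *Hoxa7* had 7 counts and *Hoxa5* had 3, and the other 7 genes had 0.

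*Meis1* encodes a TALE-class homeodomain protein that binds DNA with HOX and PBX partners. *Meis1* (ENSMUSG00000020160) lies on the minus strand of chromosome 11 in mm10, from 18879817 to 19018985. Its promoter is shown because *Meis1* is the gene that rose and because several proteins encoded by the genes described here bind short DNA words. The stretch from RefSeq (GRCm38.p6, chr11:19018920-19019219, minus strand) runs from 250 bases before to 50 bases after the start site, with the one match to an ETS, MEIS or GATA word in capitals:

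Meis1 promoter: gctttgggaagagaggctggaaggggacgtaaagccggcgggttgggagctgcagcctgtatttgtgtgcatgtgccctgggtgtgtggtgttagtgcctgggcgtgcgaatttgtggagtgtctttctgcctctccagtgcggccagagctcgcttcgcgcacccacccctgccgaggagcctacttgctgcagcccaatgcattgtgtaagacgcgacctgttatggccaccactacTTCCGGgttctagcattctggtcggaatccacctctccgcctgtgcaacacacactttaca

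The words searched on both strands were CCGGAA for ETS factors such as ERG, TGACAG for MEIS proteins, NGATAA for GATA factors and AACNG for MYB. The capitals are an ETS word read on the opposite strand, at bases 240 to 245 counted from the first base shown. A MYB word was also present on the opposite strand, at bases 221 to 225, and does not overlap the capitals. Among 32851 RefSeq mouse promoters of the same length, 14.9% held the ETS word, 19.2% the MEIS word, 25.3% the GATA word and 80.3% the MYB word. RefSeq promoters were found for 9 of the 10 genes, all but *Ly6a*. A match of letters is a description of the sequence and not evidence of binding.

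*Meis1* was at 159, 228 and 253 CPM in the vehicle mice and at 393, 368 and 528 CPM in the AG636 mice. The lowest AG636 mouse was well above the highest vehicle mouse. The means were 213 ± 48.7 and 429.9 ± 86.1 CPM (SD, n = 3 each), and the log2 fold change was 1.01 ± 0.19 SE (edgeR adjusted p = 0.00795). The exact two-sided permutation p was 0.1, the smallest the design allows. *Meis1* was called higher in each of 14 settings, with adjusted p-values from 2.79e-10 to 0.0341. The lowest came from the fit without a filter, which is read with caution, and the next from DESeq2 (1.75e-05). The other edgeR fits and limma-voom gave 0.0074 to 0.0341. Leaving out 1 mouse at a time gave log2 fold changes from 0.83 without the first vehicle mouse (edgeR adjusted p = 0.0176) to 1.13. The summed level of maturing granulocyte markers, from 1039 to 2376 CPM with vehicle and from 2897 to 5909 CPM with AG636, also did not overlap between groups, and its part in the *Meis1* values was not tested. The unnamed transcripts Gm16140 and Gm37818 lie on the opposite strand over *Meis1* exons and had 192 and 19 counts in all, against 10319 for *Meis1*. Whether the counting used strand is not given in the sources used here, so reads from these overlaps cannot be told apart.

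Ratios between genes within a library do not depend on the scaling of libraries and were computed after the levels had been seen. *Meis1* relative to *Myb* was 0.377, 0.467 and 0.523 with vehicle and 0.815, 0.931 and 0.960 with AG636. These values did not overlap, and their means were 0.455 ± 0.0735 and 0.902 ± 0.0770 (SD, n = 3 each). *Meis1* relative to *Kit*, the gene of the sorted antigen, was 3.70, 7.20 and 6.20 with vehicle and 8.52, 9.91 and 11.9 with AG636, again without overlap. By contrast *Cd34* relative to *Kit* overlapped between groups, at 2.05, 4.50 and 3.94 against 3.96, 3.85 and 4.65. For *Meis1* to *Myb* and *Meis1* to *Kit* the exact two-sided permutation p was 0.1, and for *Cd34* to *Kit* it was 0.5.

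**Figure D2:**
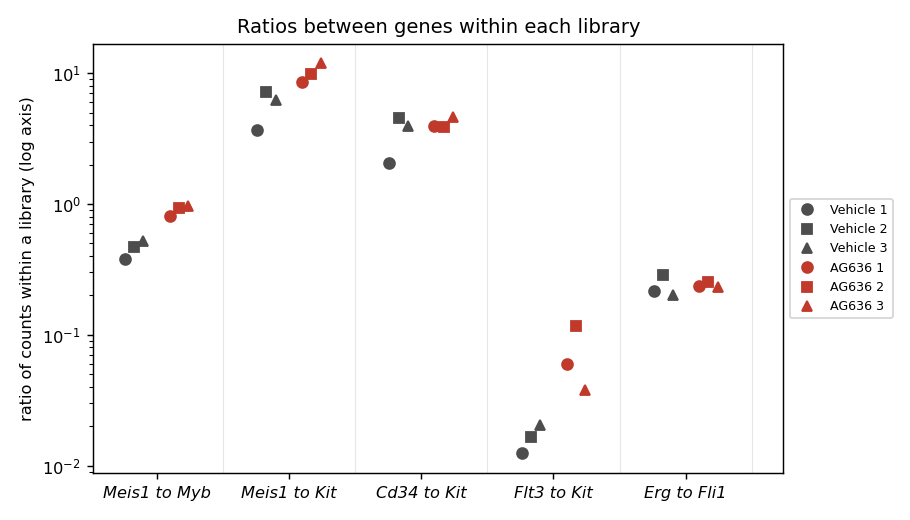
Ratio of the counts of 2 genes within each library, on a log axis, for 5 pairs of genes. Grey symbols are vehicle mice and red symbols AG636 mice. The groups separate for *Meis1* to *Myb*, *Meis1* to *Kit* and *Flt3* to *Kit*, and overlap for *Cd34* to *Kit* and *Erg* to *Fli1*.

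Genes for proteins that act with HOX and MEIS1 had estimates on both sides of 0. In a list of 14 partners and regulators, 11 were tested, 0 rose and 0 fell, beside 10.3% and 11.0% of all genes tested. The median log2 fold change was -0.01. DESeq2 and limma-voom called 0 as well. At an unadjusted p under 0.05 by edgeR, 2 of the 11, *Men1* and *Mllt1*, were lower, beside 18.4% of all genes tested. *Pbx2*, encoding a DNA-binding partner of MEIS1, had a log2 fold change of 0.19 ± 0.12 SE (edgeR adjusted p = 0.272), and *Kmt2a*, encoding the MLL histone methyltransferase, had one of 0.05 ± 0.12 SE (edgeR adjusted p = 0.787). *Men1*, encoding the MLL cofactor menin, was at 70.9, 57.4 and 70.0 CPM with vehicle and at 48.9, 45.2 and 55.3 CPM with AG636. All AG636 values were below all vehicle values, but the log2 fold change of -0.40 ± 0.15 SE did not pass (edgeR adjusted p = 0.0721). The *Meis1* relatives *Meis2* and *Meis3* had 1 and 9 counts in all.

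*Myb* encodes a transcription factor required by hematopoietic progenitors and by many AMLs. *Myb* (ENSMUSG00000019982, chromosome 10, 21124935 to 21160984) was at 422, 489 and 484 CPM with vehicle and at 483, 395 and 550.0 CPM with AG636. The AG636 mice spanned the whole vehicle range. The means were 465 ± 37.2 and 476 ± 77.6 CPM (SD, n = 3 each), with a log2 fold change of 0.03 ± 0.14 SE (edgeR adjusted p = 0.878). The estimate changed sign, to -0.045 without the first vehicle mouse and to -0.082 without the third AG636 mouse, and was called in 0 of 14 settings. Within the MYB family and its coactivators, 5 genes were tested, and 0 rose and 2 fell by edgeR, DESeq2 and limma-voom alike. Of all genes tested by edgeR, 10.3% rose and 11.0% fell. At an unadjusted p under 0.05 by edgeR, 2 of the 5 were higher (*Mybl1* and *Ep300*) and 2 lower. The shares over all genes tested were 18.7% and 18.4%. *Taf12*, a TFIID subunit reported as a MYB coactivator, was at 86.4, 68.7 and 56.5 CPM with vehicle and at 39.2, 30.2 and 35.7 CPM with AG636, and fell by 1.01 ± 0.18 SE on the log2 scale (edgeR adjusted p = 0.00685). *Mybl2*, a cell cycle member of the family, fell by 0.58 ± 0.13 SE (edgeR adjusted p = 0.0143).

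*Erg* encodes an ETS factor needed for stem cell maintenance. *Erg* (ENSMUSG00000040732, chromosome 16, 95359169 to 95586593) was at 13.9, 27.9 and 26.7 CPM with vehicle and at 36.4, 35.9 and 40.4 CPM with AG636. The 3 AG636 mice were close together and above all vehicle mice, of which the first was lowest. The means were 22.8 ± 7.77 and 37.6 ± 2.47 CPM (SD, n = 3 each), and the log2 fold change was 0.72 ± 0.24 SE (edgeR adjusted p = 0.0598, exact two-sided permutation p = 0.1). Without the first vehicle mouse the log2 fold change was 0.45 (edgeR adjusted p = 0.133). *Erg* passed the threshold in 4 of 14 settings, within adjusted p-values of 0.00922 to 0.161. The lowest came from the fit without a filter, and *Erg* was called in 0 of 6 fits that left out 1 mouse. Among all genes tested, 41.1% had groups that did not overlap, and in 20.4% the AG636 values were wholly above the vehicle values, as for *Meis1* and *Erg*. The related ETS gene *Fli1* was at 64.5, 97.7 and 132 CPM with vehicle and at 154, 142 and 174 CPM with AG636 (log2 fold change 0.68 ± 0.22 SE, edgeR adjusted p = 0.0506). The *Erg* to *Fli1* ratio overlapped between groups, at 0.215, 0.286 and 0.202 against 0.236, 0.253 and 0.232.

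*Mecom* encodes the zinc finger protein EVI1, a marker of long-term stem cells and of a high-risk form of AML. *Mecom* (ENSMUSG00000027684, chromosome 3, 29951296 to 30548008) had 0 counts in each vehicle library and 0, 0 and 1 count in the AG636 libraries. A difference was not detectable at this depth.

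Other stem cell transcription factors were called in both directions. In a list of 14 genes, 12 were tested, 2 rose and 2 fell, beside 10.3% and 11.0% of all genes tested. By DESeq2 5 rose and 2 fell, beside 9.09% and 11.5% of all genes it gave an adjusted p. By limma-voom 3 rose and 2 fell, beside 10.3% and 11.1%. At an unadjusted p under 0.05 by edgeR, 7 were higher and 2 lower, beside 18.7% and 18.4% of all genes tested. *Gata2*, a stem and progenitor factor, was at 150.2, 175 and 208 CPM with vehicle and at 271, 288 and 338 CPM with AG636. Its groups did not overlap, the log2 fold change was 0.75 ± 0.15 SE (edgeR adjusted p = 0.00896), and it was called in 6 of 6 fits that left out 1 mouse. *Sox4*, a factor of immature progenitors, was at 169, 199 and 269.8 CPM with vehicle and at 373, 264 and 572 CPM with AG636. The second AG636 mouse lay within the vehicle range, and the log2 fold change was 0.92 ± 0.26 SE (edgeR adjusted p = 0.0323). *Tal1*, a partner of GATA factors in stem and erythroid cells, was at 181, 131 and 111 CPM with vehicle and at 77.0, 95.9 and 90.8 CPM with AG636. It fell by 0.68 ± 0.18 SE on the log2 scale (edgeR adjusted p = 0.0269), and *Gfi1b*, a repressor of erythroid and megakaryocytic cells, fell by 0.62 ± 0.16 SE (edgeR adjusted p = 0.0250). *Sox4* and *Tal1* were each called in 2 of the 6 fits that left out 1 mouse, and *Sox4* had a log2 fold change of 0.59 without the third AG636 mouse (edgeR adjusted p = 0.113). *Runx1*, with a log2 fold change of 0.71 (edgeR adjusted p = 0.0538), and the myeloid factor gene *Spi1*, with 0.67 (edgeR adjusted p = 0.0714), did not pass.

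A list of 17 further genes linked to leukemia stem cells had 15 tested. Of these, 5 rose and 1 fell, beside 10.3% and 11.0% of all genes tested. *Mef2c*, encoding a transcription factor of MLL-rearranged leukemia, was at 48.4, 81.8 and 84.0 CPM with vehicle and at 151, 147 and 165 CPM with AG636. The groups did not overlap, and the log2 fold change was 1.11 ± 0.19 SE (edgeR adjusted p = 0.00611). The coactivator gene *Eya1* (log2 fold change 0.997), the Ikaros family gene *Ikzf2* (0.92), the differentiation inhibitor gene *Id1* (0.90) and the demethylase family gene *Jmjd1c* (0.44) also rose. *Cd44*, the hyaluronan receptor gene, was at 219.9, 175 and 198 CPM with vehicle and at 143, 118 and 132 CPM with AG636, and fell by 0.59 ± 0.13 SE on the log2 scale (edgeR adjusted p = 0.0138).

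**Figure D3:**
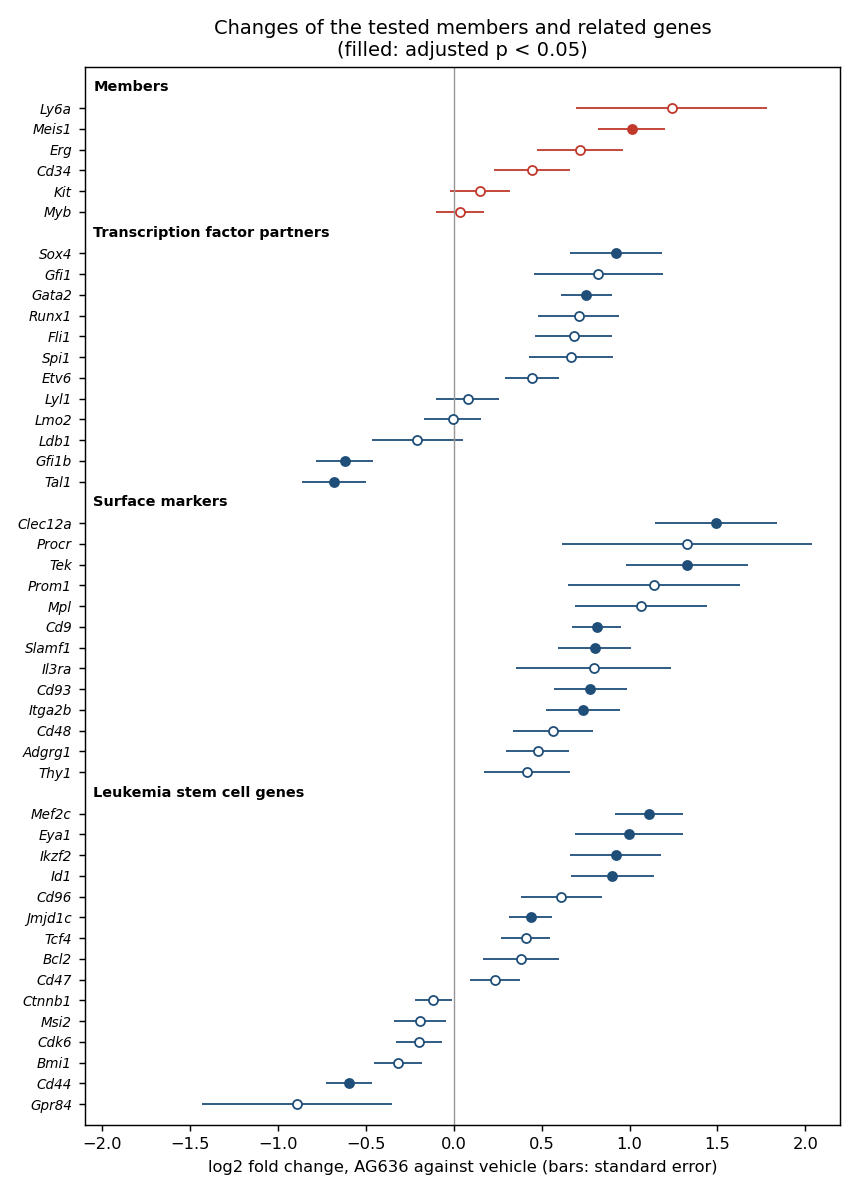
Log2 fold change of AG636 against vehicle with its standard error for the 6 tested genes of the group (red) and for tested transcription factor partners, surface markers and leukemia stem cell genes (blue). Filled points have an edgeR adjusted p under 0.05. Among the red points only *Meis1* is filled, at 1.01, and *Gata2*, *Cd9* and *Mef2c* are filled in the other lists.

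The counts over these related lists, like those over all genes, depended on which mice were kept. The lists held 131 genes, of which 98 were tested, 23 rose and 7 fell, beside 10.3% and 11.0% of all genes tested. Without the first vehicle mouse 7 rose and 3 fell, and without the second 8 rose and 4 fell. Without the first AG636 mouse 11 rose and 3 fell, and without the third 5 rose and 1 fell. Over all genes, 1146 rose and 1222 fell with all 6 mice. In the same order of left-out mice, 524, 500, 605 and 399 rose and 701, 692, 630 and 452 fell, with fewer samples in each fit. *Gata2*, *Cd9*, *Mef2c* and *Sla* among the genes that rose, and *Taf12* among those that fell, were called in 6 of 6 fits that left out 1 mouse. The other calls were lost in at least 1 of these fits, and none changed direction. Without the first vehicle mouse the lost calls included *Itga2b* (log2 fold change 0.56, edgeR adjusted p = 0.112), *Lyn* (0.45, edgeR adjusted p = 0.0896), *Eya1* (0.69, edgeR adjusted p = 0.0919) and *Id1* (0.67, edgeR adjusted p = 0.0537).

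Genes whose pattern over the 6 samples was most like that of each tested gene were found by Pearson correlation of log2(CPM + 1), as a description over samples that share the treatment contrast. The nearest to *Meis1* was *Cxxc5*, encoding a CXXC zinc finger protein, at r = 0.998, and 979 other genes exceeded 0.9. *Cxxc5* rose by 0.75 on the log2 scale (edgeR adjusted p = 0.0150). The nearest to *Erg* was *Myl6b* at 0.996, to *Cd34* *Myo1g* at 0.995, to *Myb* *Lima1* at 0.996, to *Kit* *Spag1* at 0.980 and to *Ly6a* *Pla2g16* at 0.989.

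**Figure D4:**
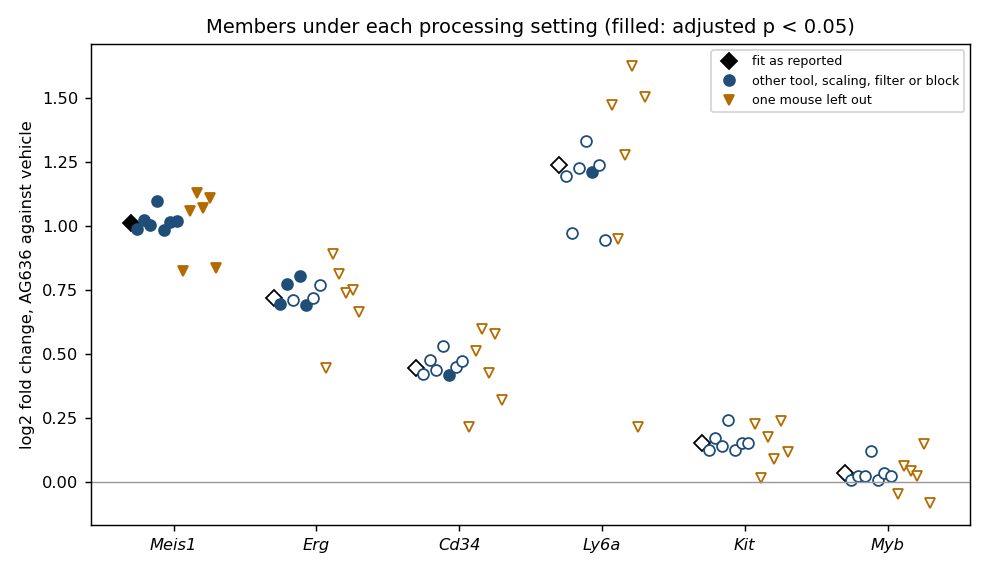
Log2 fold change of AG636 against vehicle for each tested gene under 14 settings: the fit as reported (black), other tools, scalings, filters or a replicate block (blue), and fits with 1 mouse left out (orange). Filled symbols have an adjusted p under 0.05. *Meis1* is filled throughout, *Erg* in 4 settings, *Cd34* and *Ly6a* in 1 each, and *Kit* and *Myb* in none.

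Among marker lists of other cell types in the same libraries, that of maturing granulocytes had the most calls, and several other summed levels overlapped between groups. Of 9 maturing granulocyte markers, all 9 were tested and 7 rose, beside 10.3% of all genes tested. Their summed level was 1039, 2107 and 2376 CPM with vehicle and 5909, 3102 and 2897 CPM with AG636, so every AG636 mouse was above every vehicle mouse. *Itgam*, which encodes CD11b, the antigen used to leave out mature myeloid cells, was at 12.1, 18.3 and 26.9 CPM with vehicle and at 59.9, 31.2 and 41.0 CPM with AG636. It rose by 1.21 ± 0.31 SE on the log2 scale (edgeR adjusted p = 0.0219), and the granule protein gene *Ngp* rose by 1.67 ± 0.22 SE (edgeR adjusted p = 0.00271). Without the first vehicle mouse *Itgam* had a log2 fold change of 0.96 (edgeR adjusted p = 0.0530), and 4 granulocyte markers rose without the first or without the second vehicle mouse. *Ngp* was called in 6 of 6 fits that left out 1 mouse and *Itgam* in 2 of 6. Of 8 erythroid markers, 8 were tested and 2 fell, beside 11.0% of all genes tested. The red cell master regulator gene *Klf1* was among those that fell, by 1.10 on the log2 scale (edgeR adjusted p = 0.0238). *Klf1* had a log2 fold change of -0.69 without the first vehicle mouse (edgeR adjusted p = 0.0424), and its call was lost without the first AG636 mouse (-1.21, edgeR adjusted p = 0.0532) and without the third (-0.92, edgeR adjusted p = 0.0868). With 1 mouse left out, 0 to 5 erythroid markers fell, 0 of them without the first or the third AG636 mouse, 1 without the first or the second vehicle mouse and 5 without the third vehicle mouse. Their summed level was 4758, 3050 and 1688 CPM with vehicle and 2456, 3260 and 1958 CPM with AG636, and overlapped.

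Mast cells and basophils also express *Kit* and *Gata2*. Of their 10 markers, 6 were tested and 1 rose, the carboxypeptidase gene *Cpa3* (log2 fold change 0.96, edgeR adjusted p = 0.0423), while the mast cell protease genes *Cma1* and *Tpsab1* were at 0 counts. *Cpa3* was called in 1 of 6 fits that left out 1 mouse, and without the third AG636 mouse its log2 fold change was 0.53 (edgeR adjusted p = 0.145). DESeq2 and limma-voom called 0 mast cell and basophil markers. The summed mast cell and basophil level overlapped between groups, at 426 to 774 CPM with vehicle and 584 to 1313 CPM with AG636. Megakaryocyte markers, which share *Itga2b* with the surface list, summed to 776 to 1210 CPM with vehicle and 1048 to 1700 CPM with AG636, and 2 of 5 tested rose, or 0 without the third AG636 mouse. Endothelial cells express *Erg*, *Cd34* and *Tek*, and their defining genes *Cdh5* and *Cldn5* were at 0 counts in all 6 libraries. The 7 endothelial markers, *Tek* among them, summed to 106 to 183 CPM with vehicle and 159 to 254 CPM with AG636, and of 2 tested only *Tek* rose, a call lost without the first or second vehicle mouse and without the first or the third AG636 mouse. Monocyte markers summed to 69.2 to 99.5 CPM with vehicle and 109 to 162 CPM with AG636, T and NK cell markers to 193 to 330 against 257 to 492 CPM, and B cell markers to 6.76 to 14.6 against 14.6 to 19.7 CPM. Among these, 1 of 6 tested monocyte markers rose (*Ly6c2*). Only 1 of 9 T and NK cell markers (*Nkg7*) and 1 of 6 B cell markers had enough counts to be tested, and neither passed. Beside these marker counts, 10.3% of all genes tested rose and 11.0% fell by edgeR. The part of these cell types in the changes of *Meis1* and the related genes was not tested.

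**Figure D5:**
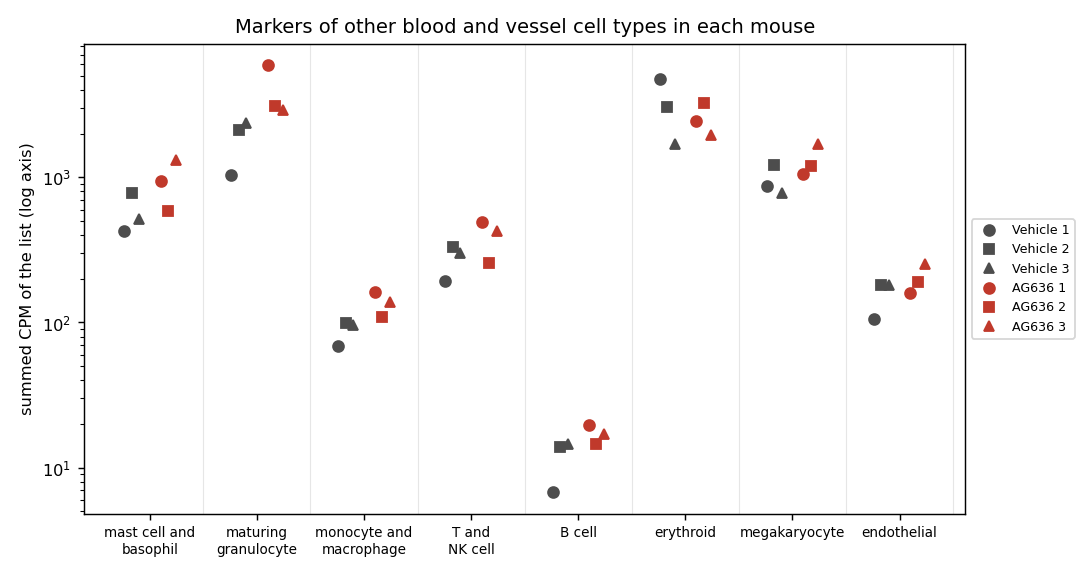
Summed level in CPM, on a log axis, of 8 marker lists of other blood and vessel cell types in each mouse, grey for vehicle and red for AG636. The lowest granulocyte sum with AG636 (2897 CPM) is above the highest with vehicle (2376 CPM), while the erythroid and mast cell sums overlap.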

How the data were processed

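The authors deposited raw counts per gene for 6 libraries made with a 3′ end kit (QuantSeq). Per the labels and the submitters' processing notes, reads were checked with FastQC, trimmed with cutadapt 1.9.1, aligned to mm10 with HISAT2 2.0.4 and counted with featureCounts (Subread 1.5.0-p3). The annotation release, strand setting and treatment of multimapping reads are not given in the sources used here. GENCODE M21 gave symbols to 99.8% of 54838 gene IDs.

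Counts were tested in R 4.3.3 with edgeR 4.0.16 (quasi-likelihood, TMM scaling, filterByExpr set to min.count 10 and min.total.count 15), adjusted by Benjamini-Hochberg over 11092 genes, with a threshold of 0.05. The SE is the log2 fold change divided by the root of the F statistic. CPM are counts scaled to 1000000 per library, after TMM. Because reads come from 3′ ends, CPM were not divided by gene length. The fits were tested on simulated data.

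Alternatives were DESeq2 1.42.0, limma-voom 3.58.1, other scalings and filters, a replicate block and leaving out each mouse. Where DESeq2 gave no adjusted p, none was used. The genes, lists and tests were chosen with earlier results of these data known. Named were the 10 genes, up to 3 called genes of each list in each direction by adjusted p, measured HOXA genes, called marker genes and nearest-pattern genes. The other list genes with values were named after these were seen. One called marker gene is not reported here. Each group holds 3 mice. Totals were 4634963 to 7906589 counts, intervals and floors cover counting error only, and within groups libraries differed beyond sampling noise (chi-square per degree of freedom 6.68 to 15.7).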

Additional observations from a re-analysis of the deposited data

How the results depend on the processing

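*Meis1* stayed higher and past the threshold in every setting run, and *Kit* never passed. *Erg* passed with DESeq2 (log2 fold change 0.69), limma-voom (0.77), library size alone (0.80) and no filter (0.69), and ranged from 0.45 to 0.89 with 1 mouse left out. It was called in 0 of those 6 fits. *Cd34* (0.42) and *Ly6a* (1.21) passed only without a filter, a fit in which the SE of *Ly6a* was 0.23 against 0.54 as reported. Calls made by that fit alone are therefore read with caution. Left-out mice moved *Cd34* from 0.22 to 0.60, *Ly6a* from 0.21 to 1.62 and *Myb* from -0.082 to 0.15, where *Myb* turned to -0.045 without the first vehicle mouse and to -0.082 without the third AG636 mouse. The number of the 10 genes called higher was 3 with DESeq2, 2 with limma-voom, 2 with library size alone and 5 without a filter, which lets *Flt3* in, and 1 to 2 with a mouse left out. Of all genes, DESeq2 called 9.09% higher, limma-voom 10.3% and the fit without a filter 7.19%. With library size alone 1483 of 11092 genes were called higher. Calls in the related lists ranged from 5 to 24 higher and 1 to 10 lower with a mouse left out, and calls over all genes from 399 to 1074 higher and 452 to 1298 lower, with fewer samples in each fit. Over all genes 1146 were higher and 1222 lower (48.4% higher), against 1483 and 913 (61.9% higher) with library size alone.

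Same-numbered mice showed no sign of deviating together, with correlations of -0.06, -0.18 and 0.22, beside -0.38 to 0.36 for mice of different numbers. With 3 mice in each group this cannot exclude a pairing by number. With the number as a replicate block, 914 genes were higher and 1046 lower, and the log2 fold change was 1.02 for *Meis1* (edgeR adjusted p = 0.0078), 0.77 for *Erg* (edgeR adjusted p = 0.0530) and 0.94 for *Ly6a* (edgeR adjusted p = 0.296). Depth limits *Hoxa9*, *Hoxa10*, *Mecom* and *Flt3*, which lie near 3 counts per library in at least one group.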
